A study of Mus musculus with 2 samples.

Results

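The genes of miR-9 and miR-124, a pair of microRNAs (miRNAs) of the nervous system that are each made from 3 gene copies in the mouse, were followed in the neural tube of newborn mice. Members were chosen by gene name: Mir9-2, Mir9-3, Mir124a-1, Mir124a-2 and Mir124a-3, counted on their own strand, and Gm25641, an annotated miRNA gene lying opposite to Mir9-1, counted on its opposite strand. These are 6 of the 1973 miRNA genes in the tables, and each had counts in both libraries. Small RNA libraries (molecules under 30 bases) were made from total RNA of pup 1 and of pup 2, newborns (age 0 days) of strain B6NCrl from 1 dam, of unrecorded sex, each giving 1 neural tube. No treatment or mutation is given, so the data hold 1 group of 2 libraries and no contrast between conditions, and every SD below is the spread between these 2 pups.

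A miRNA is cut from a hairpin precursor, either arm of which can yield a mature strand of about the same length, and it recognises target messenger RNAs mainly through its seed, bases 2 to 8. miR-9 is known from neural progenitors and their neuronal offspring, where it acts on regulators of progenitor growth such as Nr2e1 and Hes1. miR-124 is a classical miRNA of neurons that represses non-neuronal transcripts, among them Ptbp1, a splicing regulator. In bulk tissue, fewer cells of a type and less miRNA per cell cannot be told apart.

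The 3 copies of Mir9 are shown first because a read from a stretch that they share cannot be assigned to 1 of them. The hairpins are from RefSeq (build GRCm38.p6, plus strand), with both mature arms in capitals; 3 of the 6 members, Mir9-2, Mir9-3 and Gm25641, matched that table.
Mir9-1 at chr3:88215598-88215686: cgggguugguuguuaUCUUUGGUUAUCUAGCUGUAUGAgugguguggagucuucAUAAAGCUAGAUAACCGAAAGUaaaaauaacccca
Mir9-2 at chr13:83738814-83738885: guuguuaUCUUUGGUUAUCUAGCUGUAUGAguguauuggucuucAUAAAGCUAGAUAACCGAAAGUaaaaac
Mir9-3 at chr7:79505264-79505353: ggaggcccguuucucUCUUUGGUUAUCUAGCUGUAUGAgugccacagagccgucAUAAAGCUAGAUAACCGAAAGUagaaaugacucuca

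The mature arms of all 3 copies are identical, so a read that ends exactly at an arm fits all 3 genes. They are shown with the seed in capitals, together with the arms annotated on the other strand at Mir9-1 (Gm25641, minus strand, chr3:88215613-88215670 in RefSeq), which RefSeq names miR-9b.
miR-9-5p: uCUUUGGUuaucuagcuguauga
miR-9-3p: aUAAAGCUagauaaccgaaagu
miR-9b-5p: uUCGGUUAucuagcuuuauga
miR-9b-3p: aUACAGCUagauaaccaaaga
The 4 arms have 4 different seeds. Among the 1738 mature entries of the table, each miR-9 seed was found only in the entries of the 3 Mir9 copies. The miR-9b-5p seed was found at Gm25641 and Gm51285, and the miR-9b-3p seed at Gm25641, Gm51268 and Gm51285, all in entries named miR-9b.

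Outside the arms the copies differ at unequal distances. Walking outward from the 5p arm, Mir9-3 parts from both other copies at the 1st base upstream, and from the 3p arm at the 2nd base downstream. Mir9-1 and Mir9-2 part from each other only at the 4th base downstream of the 5p arm and at the 6th base downstream of the 3p arm. The shortest read that holds a whole arm and fits 1 copy alone is therefore 24 bases long for Mir9-3, against 27 bases (5p arm) or 28 bases (3p arm) for both Mir9-1 and Mir9-2. The longest stretch shared by Mir9-1 and Mir9-2 was 33 bases, against 26 bases shared by either with Mir9-3. Between the 3 annotated precursors of miR-124 the longest shared stretches were 31 to 32 bases. Of all 22-base windows in a precursor, 87.0% were found in no other annotated precursor for Mir9-3, 64.7% for Mir9-1 and 52.9% for Mir9-2. The same share was 67.2% for Mir124a-1, 70.5% for Mir124a-2 and 57.4% for Mir124a-3. No miR-124 copy reached the share of Mir9-3. The share also depends on the annotated precursor length, which was 85, 109 and 68 bases for these miR-124 copies in the same order. Distances from the arms to the first difference were not measured for miR-124, whose genes did not match the RefSeq table.

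Mir9-3 stood far above the other members. Mir9-3 (ENSMUSG00000093238.1), which lies in an intron of the long noncoding RNA gene Mir9-3hg, had 1447 counts in pup 1 and 1715 counts in pup 2. Scaled to 1000000 own-strand counts per library (CPM), this is 450 CPM for pup 1 against 468 CPM for pup 2, with a mean of 459 CPM ± 13.2 (SD, n = 2). The pups lay close together, and the gene ranked 126th of 1973 in mean CPM. The genes next to it in level were Mir674 (486 CPM ± 41.9) and Mir676 (483 CPM ± 46.5) above, and Mir214 (457 CPM ± 147) and Mir203 (449 CPM ± 14.3) below. With 2 libraries no likeness of pattern can be measured, so these are neighbours in level alone.

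Mir9-2 (ENSMUSG00000065424.1), in an exon of the long noncoding RNA gene C130071C03Rik, had 3 counts in pup 1 and 7 counts in pup 2. Its level was 0.933 CPM in pup 1 and 1.91 CPM in pup 2, with a mean of 1.42 CPM ± 0.69 (SD, n = 2). Both values sit near the limit of counting, since 3 counts, the most that a count of 0 allows, equal 0.933 CPM in pup 1 and 0.820 CPM in pup 2. Mir9-3 lay 482-fold above Mir9-2 in pup 1 and 245-fold above it in pup 2; both genes yield the same mature sequences. The exact 95% Clopper-Pearson intervals of the levels did not overlap in either pup (427 to 474 CPM for Mir9-3 and 0.19 to 2.73 CPM for Mir9-2 in pup 1). Intervals and floors cover counting error only, as the reads carry no stated molecular identifiers.

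Mir9-1 has no row of its own here, and the strand it is made from is the opposite strand of Gm25641 (ENSMUSG00000092876.1, chr3:88215589-88215696 in the GENCODE annotation, mm10). On that strand 41 counts were found in pup 1 and 49 counts in pup 2, or 12.7 CPM against 13.4 CPM (mean 13.1 CPM ± 0.45, SD, n = 2). On its own strand, the strand of miR-9b, Gm25641 had 0 counts in both pups. The strand opposite to Mir9-3 had 0 counts in pup 1 and 1 count in pup 2, and the strand opposite to Mir9-2 had 0 in each. But for that 1 count, all counts assigned to the 3 Mir9 loci lay on the miR-9 strand. As the miR-9 arms are identical, a read within an arm on the other strand would also fit all 3 loci and be counted to none. The 0 counts of Gm25641 are thus no measure of miR-9b. The reads at Mir9-1 exceeded those of Mir9-2 by 13.7-fold in pup 1 and 7.00-fold in pup 2, with intervals apart in both pups. A read that holds a whole arm must be equally long to fit Mir9-1 alone or Mir9-2 alone. Of 22-base windows, 44 of 68 at Mir9-1 (64.7%) and 27 of 51 at Mir9-2 (52.9%) were found in no other annotated precursor. Both genes thus had equally many shared windows. The shares differed because the annotated precursors differ in length, 89 bases for Mir9-1 against 72 bases for Mir9-2. The counts for Mir9-1 were also taken over the 108 bases of Gm25641, against 72 bases for Mir9-2. The part of these differences in the gap was not tested. Of the counts at the 3 loci, Mir9-3 held 97.0% in pup 1 and 96.8% in pup 2 (exact 95% intervals 96.1 to 97.8% and 95.9 to 97.6%).

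The 3 genes of miR-124 had few counts in both pups. Mir124a-1 (ENSMUSG00000065597.1, chr14:64590657-64590741, plus strand), in an exon of the long noncoding RNA gene Mir124a-1hg, had 20 counts in pup 1 and 50 counts in pup 2. These equal 6.22 CPM for pup 1 against 13.7 CPM for pup 2 (mean 9.94 CPM ± 5.26, SD, n = 2), the widest relative gap between the pups among the 4 members tested below. Mir124a-3 (ENSMUSG00000065454.1, chr2:180894040-180894107, plus strand), in an exon of the long noncoding RNA gene Gm27032, had 7 counts in pup 1 and 10 counts in pup 2 (2.45 CPM ± 0.39).

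Mir124a-2 (ENSMUSG00000093073.1, chr3:17795662-17795770, plus strand), in an exon of the long noncoding RNA gene Mir124-2hg, had 4 counts in pup 1 and 3 counts in pup 2 (1.03 CPM ± 0.30). Mir124a-1 held 64.5% of the family's 31 counts in pup 1 and 79.4% of its 63 counts in pup 2, with exact 95% intervals of 45.4 to 80.8% and 67.3 to 88.5%. These intervals overlap. The counts opposite to Mir124a-3 were 3 in pup 1 and 2 in pup 2, and those opposite to the other miR-124 genes were 0. Summed, the miR-124 genes stood at 9.64 CPM for pup 1 against 17.2 CPM for pup 2 (mean 13.4 CPM ± 5.35, SD, n = 2).

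**Figure D1:**
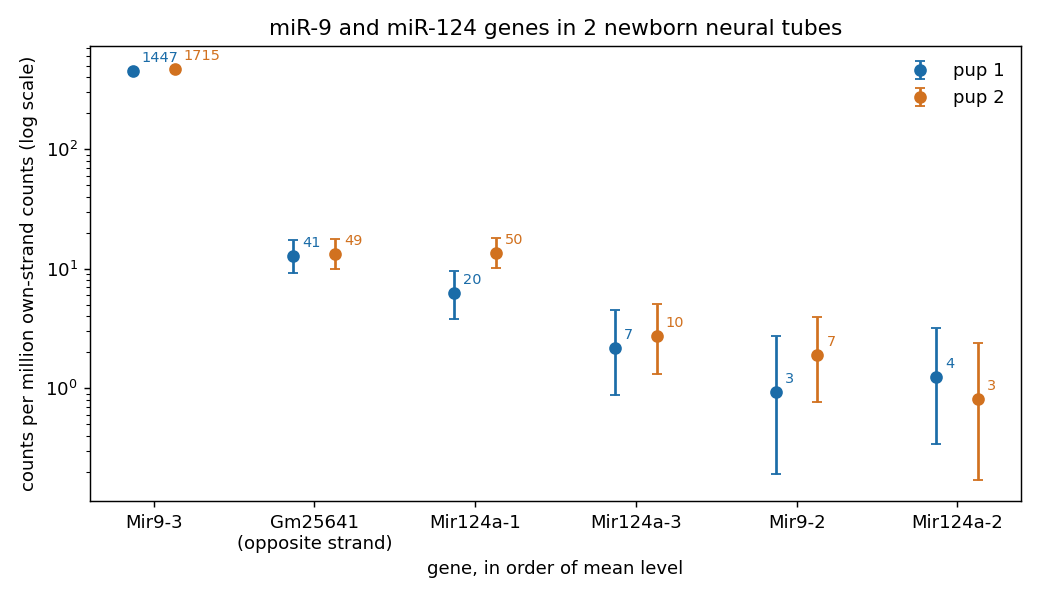
Level of each gene in pup 1 (blue, left) and pup 2 (orange, right) in CPM on a log axis, from own-strand counts or, for Gm25641, opposite-strand counts, with exact 95% intervals and the raw count beside each point. Mir9-3, at 450 and 468 CPM, stands apart from the 5 other genes, all at or below 13.7 CPM.

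Ordered by mean level, the members ran Mir9-3, Gm25641 (opposite strand), Mir124a-1, Mir124a-3, Mir9-2 and Mir124a-2. Of the 5 pairs of neighbours, only Mir9-3 and Gm25641 (35.1-fold) had pup values and intervals that were apart in both pups. Gm25641 and Mir124a-1 (1.31-fold), Mir124a-1 and Mir124a-3 (4.05-fold), Mir124a-3 and Mir9-2 (1.73-fold) and Mir9-2 and Mir124a-2 (1.38-fold) were not apart in this sense. Neighbours below Mir9-3 were thus not told apart at these depths. Genes farther apart in the order were in some cases, since Gm25641 had intervals above those of Mir124a-3, Mir9-2 and Mir124a-2 in both pups, and Mir124a-1 above those of Mir9-2 and Mir124a-2. The median of the 6 mean levels was 6.20 CPM, against a median of 0 over all 1973 genes, of which 1293 had no own-strand count, and 200.5 CPM over the 352 genes with at least 10 counts in both pups (17.8%). On their own strand, 2 of the 6 members, Mir9-3 and Mir124a-1, were among those 352.

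Reads that fit several places stand in a class of their own in the tables and are counted to no gene. Own-strand totals were 3216453 counts in pup 1 and 3660693 counts in pup 2, beside 2268506 and 2555735 reads in the class of reads with several placements. This class held 35.7% of all reads in pup 1 and 35.4% in pup 2. The 6 members together had 1522 counts in pup 1 and 1834 in pup 2, or 0.0473% and 0.0501% of the own-strand totals. For each count of the miR-9 genes on their own strand, 1564 reads of pup 1 and 1484 reads of pup 2 had several placements; for each count of the miR-124 genes, 73178 and 40567 did. That class pools the reads of all repeated sequences, and how many of them are miR-9 or miR-124 was not tested. The values of the members are counts of the reads left outside that class, and not levels of mature miR-9 or miR-124.

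Genes across the whole table were then grouped by how many annotated precursors hold the same mature sequence, taking for each gene the arm with the fewest copies. Among 16 genes with 3 or more copies, which include Mir9-2 and Mir9-3, 2 (12.5%) had at least 10 counts in both pups, namely Mir9-3 and Mir199b. Among 31 genes with 2 copies 6 did (19.4%), and among 869 genes with an arm found in no other precursor 312 did (35.9%). Classing by the arm with the most copies, an alternative chosen after seeing the data, gave 13.8% for 3 or more copies, 59.5% for 2 copies and 33.5% for 1 copy, so the order of the classes depends on this choice. The 916 genes grouped here are those whose RefSeq arms were found in their annotated precursors.

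Both arms of Mir9-2 and of Mir9-3 are shared, and 47 genes were of this kind, with every annotated arm shared. Among the 7 of them in which 1 added base parts an arm from every copy, Mir9-3 included, 5 had at least 10 counts in both pups and the median was 181 CPM. Among the 6 genes needing 2 or 3 added bases, 2 had 10 counts in both pups and the median was 0 CPM. Among the 16 genes needing 4 or more, Mir9-2 included, 1 did (Mir199b at 77.2 CPM), and among 18 genes with no parting base within the precursor none did. Mir219a-2 (925 CPM) and Mirlet7c-2 (703 CPM) were the genes above Mir9-3. The bases by which these genes part from their copies move with their counts here. The number of precursors that hold the arm with the fewest copies varied as well, from 2 (such as Mir219a-2, at 1 added base) to 86 (such as Mir680-1, at 19 added bases). The parts of added bases and of copy number in the levels were not tested.

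**Figure D2:**
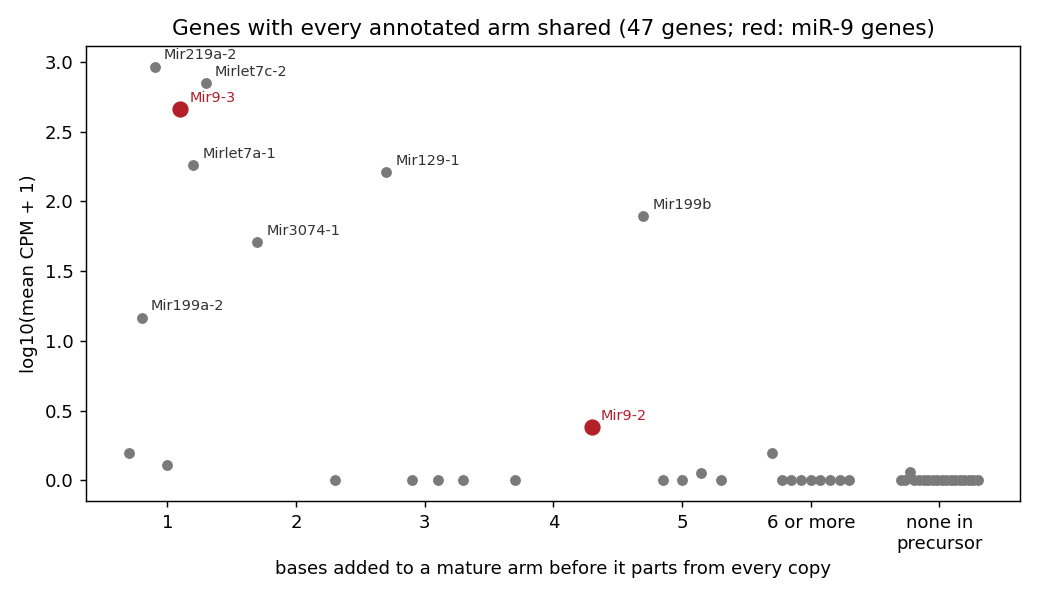
Mean level, as log10(CPM + 1), of the 47 genes whose annotated arms are all shared with another precursor, by the number of bases that must be added to an arm before it parts from every copy. Mir9-3, at 1 base, lies among the highest points. Mir9-2, at 4 bases, lies low on the axis at 1.42 CPM, yet above the median of 0 CPM of the 16 genes needing 4 or more bases.

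Set beside other miRNA genes of the nervous system, the members had low counts. The 17 genes of a list of neural miRNAs with paired copies or a close relative (such as Mir128-1, Mir138-1 and Mir7b) had mean levels of 36.5 CPM (Mir218-1) to 3126 CPM (Mir128-1), with a median of 534 CPM. The 5 members other than Mir9-3 all lay below Mir218-1, the lowest of them. The 7 genes of a single-copy neural list ran from 100.2 CPM (Mir212, made with Mir132 from 1 transcript and linked to neuronal activity) to 16076 CPM (Mir137, a regulator of neuronal maturation), with a median of 1602 CPM. Mir9-3 lay below 9 of the 17 paired-copy genes and below 6 of the 7 single-copy genes.

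In 15 of the 17 paired-copy genes, and in all 7 single-copy genes, at least 1 arm was found in no other annotated precursor, unlike in Mir9-2 and Mir9-3. Mir219a-2 and Mir129-1 were the exceptions. The 8 paired families divided their counts less unevenly than the miR-9 loci. The higher copy held 55.6% (Mir7) to 93.5% (Mir219a) of the mean level, against 97.0% and 96.8% for Mir9-3 in the pups; this difference was not tested. Summed per family, 6 of these 8 paired neural families stood above the 461 CPM of the miR-9 genes, and all 8 above the 13.4 CPM of the miR-124 genes. Of 9 other copied families, 2 stood above the miR-9 genes and 6 above the miR-124 genes, and in Mir194 (99.2%) and Mir196a (98.7%) the higher copy held a larger share than at the miR-9 loci.

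**Figure D3:**
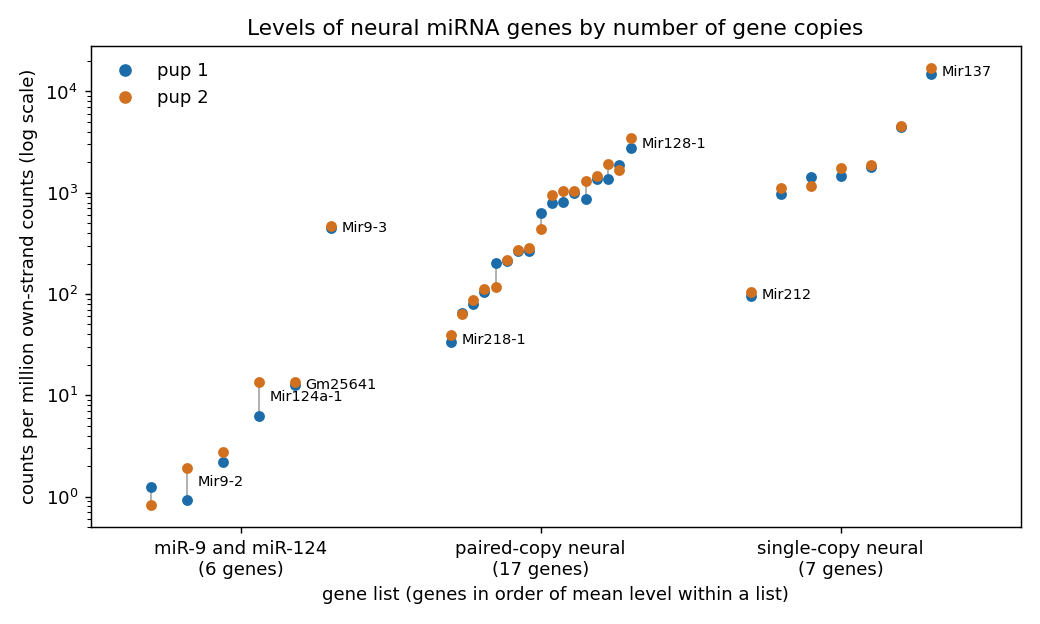
CPM (log axis) from own-strand counts, or opposite-strand counts for Gm25641, of each gene in pup 1 (blue) and pup 2 (orange), for the 6 members, 17 paired-copy and 7 single-copy neural miRNA genes, ordered by mean level within each list. The members other than Mir9-3 lie below every gene of the other lists.

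Whether a gene differed between pup 1 and pup 2 was judged from its share of the summed counts, by a binomial test (exact, two-sided) with Benjamini-Hochberg adjustment over the 413 genes holding at least 10 counts. The test sets 1 library against another and covers counting error only, so a call does not show a difference beyond the variation between libraries. Of the 4 members tested, 1 was called, Mir124a-1, whereas 169 of the 413 genes (40.9%) were called in all, 15.3% higher and 25.7% lower in pup 1, so that 1 of 4 is not a result about the members. With TMM or DESeq2 scaling the split over all genes was 78 higher and 93 lower in pup 1, against 63 and 106 here. The median log2 ratio of pup 1 over pup 2 was -0.61 over the 4 tested members and -0.04 over all genes tested. The former lies between the ratios of Mir9-2 (3 and 7 counts) and Mir124a-3 (7 and 10 counts), whose intervals both span 0. It does not show a shift of the members.

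Mir124a-1 was lower in pup 1 than in pup 2, with 20 counts in pup 1 against 50 counts in pup 2. The log2 ratio of pup 1 over pup 2 was -1.11 (exact 95% interval -1.96 to -0.36), with an adjusted p of 0.0074 in the exact binomial test. Across scalings, count minimums and strand settings this adjusted p ran from 0.0056 to 0.012. Mir124a-3 had a log2 ratio of -0.30 (interval -1.96 to 1.21, adjusted p = 0.89 in the exact test), which spans several-fold differences in either direction.

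Mir9-3 had a log2 ratio of -0.06 with a narrow interval of -0.16 to 0.04 (adjusted p = 0.41 in the exact test). Mir9-2 had a log2 ratio of -0.91 (interval -3.62 to 1.10, adjusted p = 0.515 in the exact test). Gm25641 on its opposite strand had a log2 ratio of -0.07 (interval -0.71 to 0.56) and Mir124a-2 one of 0.55 (interval -1.96 to 3.37); neither entered the test, for want of own-strand counts. Only for Mir9-3 did the counts bound the ratio closely.

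**Figure D4:**
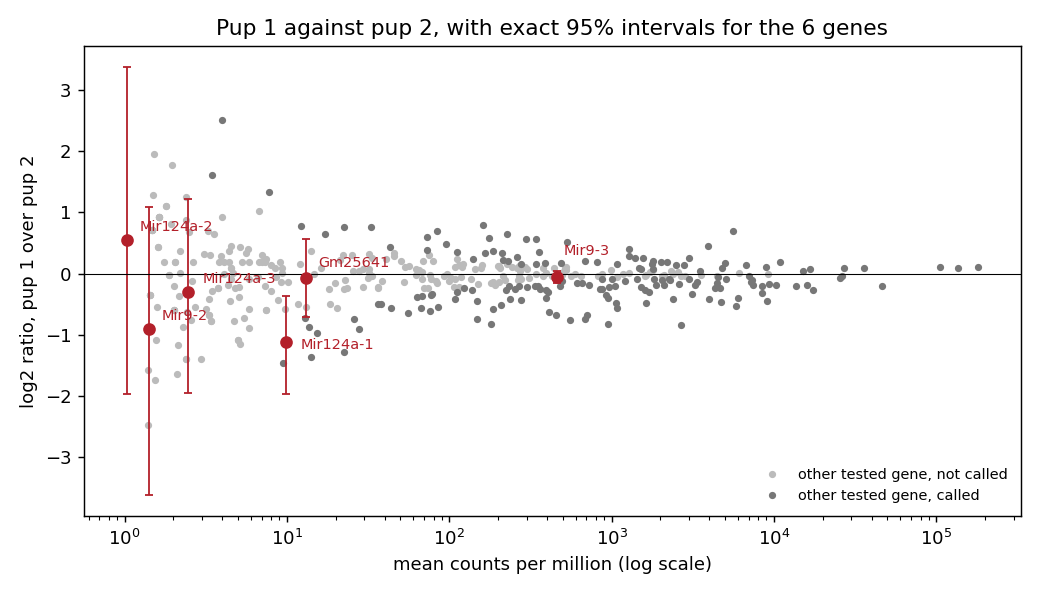
Log2 ratio of pup 1 over pup 2 against mean CPM (log axis) for the tested genes (grey, darker where called) and the 6 members (red) with exact 95% intervals. The interval of Mir124a-1 lies below 0, and those of the 5 other members span 0.

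Other markers also differed between the pups. The 5 listed genes of neurons, the miR-124 genes among them, summed to 16822 CPM for pup 1 against 19033 CPM for pup 2. Most of this sum was Mir137, at 15026 CPM for pup 1 against 17125 CPM for pup 2. Of the 4 tested, 3 were called lower in pup 1: Mir137, Mir153 and the member Mir124a-1 itself. The 3 genes of sensory neurons summed to 3233 CPM for pup 1 against 5392 CPM for pup 2, with all 3 called lower in pup 1. These 3, Mir182, Mir183 and Mir96, belong to 1 cluster and are not independent markers. The 2 oligodendrocyte genes summed to 1789 and 2157 CPM, both called lower. Of all genes tested, 25.7% were called lower. Of the 4 measured skeletal muscle genes 3, Mir1a-1, Mir133a-1 and Mir133a-2, were at 0 in both pups, and the list summed to 69.3 CPM for pup 1 against 102 CPM for pup 2 through Mir206, called lower in pup 1. Each of those 3 genes shares a stretch of 22 bases with another annotated precursor. Reads from such a stretch would be counted to no gene, so the 0 counts do not show that these miRNAs are absent. Liver Mir122 had 104 CPM for pup 1 against 64.2 CPM for pup 2, and endothelial Mir126a 27838 CPM against 26007 CPM, both called higher in pup 1. Red cell Mir451a had 92.3 CPM for pup 1 against 123 CPM for pup 2, called lower, and the 2 immune genes summed to 362 CPM against 423 CPM, with Mir223 called lower and Mir150 not called. The part of these differences in the result for Mir124a-1 was not tested. Of the 5 neuron markers, Mir137 (16076 CPM) and Mir153 (1838 CPM) were high in the labelled tissue, whereas Mir124a-1 (9.94 CPM), Mir124a-3 (2.45 CPM) and Mir124a-2 (1.03 CPM) had few counts. Of the progenitor markers, Mir9-3 stood at 459 CPM and Mir9-2 at 1.42 CPM.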

How the data were processed

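Each library's deposited table holds raw counts of reads at miRNA genes in 3 columns. The first is the sum of the others in every gene; these were read from their values as own-strand and opposite-strand counts. The authors used genome mm10 and annotation GENCODE M4, per the deposited text beside the tables; which aligner and counter they ran is not given in the sources used here. Read classes without a gene stayed out of totals (reads unmapped, multimapping, ambiguous or outside genes); the multimapping row held 35.7% of reads in pup 1 and 35.4% in pup 2. Names and positions came from GENCODE M21 on the same build, matched by identifier for 1894 of 1973 genes. Mature and hairpin sequences came from RefSeq (GRCm38.p6), and copies were sought in 2202 GENCODE M21 precursors, not in the genome.

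Levels were computed as CPM, counts scaled to own-strand totals of 1000000, so that a single count is worth 0.311 CPM for pup 1 against 0.273 CPM for pup 2. Log2 ratios had 0.5 added to each count. Genes named are the members, the 2 genes on either side of the highest member in level, and lists of neural, copied and marker genes. A list of 20 other genes with copies ran from 0 to 1704 CPM, 2 above Mir9-3. Members and lists were chosen with earlier results of these data known. Adjacent levels were held apart where pup values and Clopper-Pearson intervals were both apart. Alternatives were TMM (edgeR 4.0.16) and DESeq2 1.42.0 scaling, other totals, count minimums, strands and stretches, and leaving out each pup. The binomial test was tested on simulated data. Software was R 4.3.3, scipy 1.17.1, numpy 2.4.6, pandas 2.3.3, matplotlib 3.10.9 and Python 3.11.15.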

Additional observations from a re-analysis of the deposited data

Results flagged for a closer look

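At Gm25641 the opposite strand, which enters no gene level of its own in the tables, held 90 counts over both pups (41 in pup 1 and 49 in pup 2), above the 3 counts that a count of 0 allows, while its own strand had 0. These are the counts given above for the strand of Mir9-1. No group was large enough for a sample to be judged far from the others.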

How the results depend on the processing

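TMM and DESeq2 scaling, either-strand counts and the addition of Gm25641 moved the summed levels by less than the SD between the pups. Scaled to all reads, the sums became 233 CPM (miR-9 genes), 6.80 CPM (miR-124 genes), 13393 CPM (single-copy list) and 6894 CPM (paired-copy list), by construction of the larger total. Without the most abundant gene in the total they became 562 CPM (miR-9 genes), 32255 CPM (single-copy list) and 16601 CPM (paired-copy list), likewise by construction. Leaving out each pup gave 451 to 470 CPM (miR-9 genes), 9.64 to 17.2 CPM (miR-124 genes), 25182 to 27691 CPM (single-copy list) and 12710 to 14507 CPM (paired-copy list). The share of genes with 10 counts was 36.7 to 37.4% in single pups for 1 copy, 19.4% for 2 copies and 12.5% for 3 or more. Classed by shared stretches of 18 or 22 bases it was 27.5% and 27.7% for 1 copy, 45.8% and 40.3% for 2, and 4.22% and 2.79% for 3 or more; classed by the arm with the most copies it was 33.5%, 59.5% and 13.8%. The cause was not tested. Genes called between the pups numbered 160 to 180 under all settings tried, or 23.5% (no filter) to 55.9% (at least 50 counts) of genes tested, and Mir124a-1 was called in each. Among the members' own levels, 9 values moved by over 1 SD, all under these other totals but Mir124a-3 on either strand (3.13 CPM), and no ratio of the 5 members other than Gm25641 changed sign. The ratio of Gm25641 was not recomputed under the scalings. With at least 50 counts summed, Mir9-2 and Mir124a-3 were not tested. No paired analysis was possible because there is 1 group.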

Other observations

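Some of the long noncoding RNA genes that carry members or Mir9-1 also hold other miRNA genes, looked up after the members' values were seen. Mir9-3hg, C130071C03Rik and Mir124-2hg held no other measured miRNA gene. Gm3764, the long noncoding RNA gene whose intron holds Mir9-1, also spans Mir3093 (chr3:88215171-88215257, plus strand), which had 79 counts in pup 1 and 73 counts in pup 2 (22.3 CPM ± 3.27, SD, n = 2). On the same strand at Mir9-1 there were 41 and 49 counts. Mir124a-1hg spans Mir3078 (chr14:64591185-64591271, plus strand), which had 24 counts in each pup (7.01 CPM ± 0.64), beside 20 counts in pup 1 and 50 counts in pup 2 for Mir124a-1. Neither Mir3093 nor Mir3078 shares a stretch of 18 bases with another annotated precursor. The log2 ratio of pup 1 over pup 2 was 0.19 for Mir3078 (exact 95% interval -0.69 to 1.07), and that of Mir124a-1 was -1.11 (-1.96 to -0.36); the intervals overlap, and the difference between the genes was not tested.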
